A study of Homo sapiens with 10 samples.

Results

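The Activin A days (1, 2 and 3) and the later days 9, 11 and 13 of a hepatic differentiation of human embryonic stem cells were compared gene by gene. A gene entered the comparison when the largest of its 6 values was at least 50, and it was kept as separating the stages when its 3 values on either side all exceeded the 3 on the other. Of 12125 genes in the table, 10066 passed the filter and 6203 (61.6%) separated the stages. Among these, 2801 were higher on days 9, 11 and 13 (27.8% of the genes tested) and 3402 were higher on days 1, 2 and 3 (33.8%), while the sides overlapped for 3863 (38.4%). The separation is what the rule asks for and is no finding in itself. A gene that passed the filter only through the values of 1 side could not be called higher on the other side. That limits the counts of the gene lists below.

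The H1 line of human embryonic stem cells, an established cell line, was grown in serum-free medium and was sampled as 1 library per day on 10 days. Day 0 cells were untreated, and by the paper undifferentiated cells were kept in mTeSR1 medium. Days 1, 2 and 3 had Activin A at 100 ng per ml in RPMI medium with B27 supplement lacking insulin. Between day 0 and the Activin days the medium, the Activin A and the time in culture cannot be told apart. Days 5 and 7 had FGF4 at 30 and BMP2 at 20 ng per ml with insulin in the supplement, and days 9 and 11 had HGF and KGF at 20 ng per ml, also with insulin. Day 13 is the last day of the HGF and KGF step by the written protocol, but its label gives OSM (Oncostatin M), the 20 ng per ml treatment of day 21. The label calls day 1 early definitive endoderm, days 2 and 3 definitive endoderm, days 9 and 11 hepatoblast and day 13 hepatocyte-like, each as presumed. The growth factor, the insulin and the time in culture all differ between the 2 stages and cannot be told apart. Days are not replicates, so no p-value or error is given. For most single genes the values of the 3 days are printed and show the spread within a stage, whereas medians over genes are given without a spread.

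Activin A stands in for Nodal, a signal of the TGFβ family that acts through receptors with kinase activity and SMAD proteins and that turns pluripotent cells into mesendoderm and then definitive endoderm. The same pathway keeps its own inhibitors and ligands switched on, among them the LEFTY genes. HGF acts through the receptor MET and KGF through an epithelial form of FGFR2, and both are used to expand hepatoblasts, the fetal liver progenitors that make alpha-fetoprotein before albumin. OSM, a cytokine of the interleukin-6 family, is used for the later maturation of hepatocytes.

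The deposited values are whole-number scores, not reads, and have nearly the same distribution in every library. Their median was 81 to 82, and the highest value, 18734, was held by 10 genes in each library, so a gene at 18734 cannot go higher. Such values do not give the depth of single libraries. Differences below are of the mean log2(value + 1) over 3 days, days 9, 11 and 13 minus days 1, 2 and 3, on which changes of genes near 0 come out too small. The libraries are bulk RNA, in which fewer cells of a type and less RNA per cell cannot be told apart.

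The 3 genes used as markers of the stages lay at opposite ends of the scale. LEFTY1, a secreted inhibitor of Nodal, had the values 1046, 1157 and 4861 on days 1, 2 and 3 and 1, 3 and 0 on days 9, 11 and 13. H19, an imprinted long non-coding RNA of fetal tissues, had 2, 5 and 1 and then 18734 on each late day. SERPINA1, the liver protease inhibitor alpha-1-antitrypsin, was listed at 0 on the 3 Activin days and had 704, 1046 and 2640 on days 9, 11 and 13. None of the 3 overlapped between the sides, which the rule requires.

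The labelled cell types were checked against their defining genes, which were incomplete on days 1 and 13. SOX17, a transcription factor that defines definitive endoderm, had values of 2, 745 and 790 on days 1, 2 and 3, and the chemokine receptor CXCR4, used to sort these cells, had 0, 157 and 568. FOXA2 had 42, 200 and 190. On day 1 SOX17 and CXCR4 were thus at or near 0, whereas days 2 and 3 had all 3 genes. Among the hepatoblast genes, AFP was at 18734 and the nuclear receptor HNF4A at 1021, 918 and 838 on days 9, 11 and 13. ALB, albumin, the main secreted protein of hepatocytes, was low at 72, 100 and 168 against 4866 at day 21, so that day 13, labelled hepatocyte-like, had little of it.

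**Figure D1:**
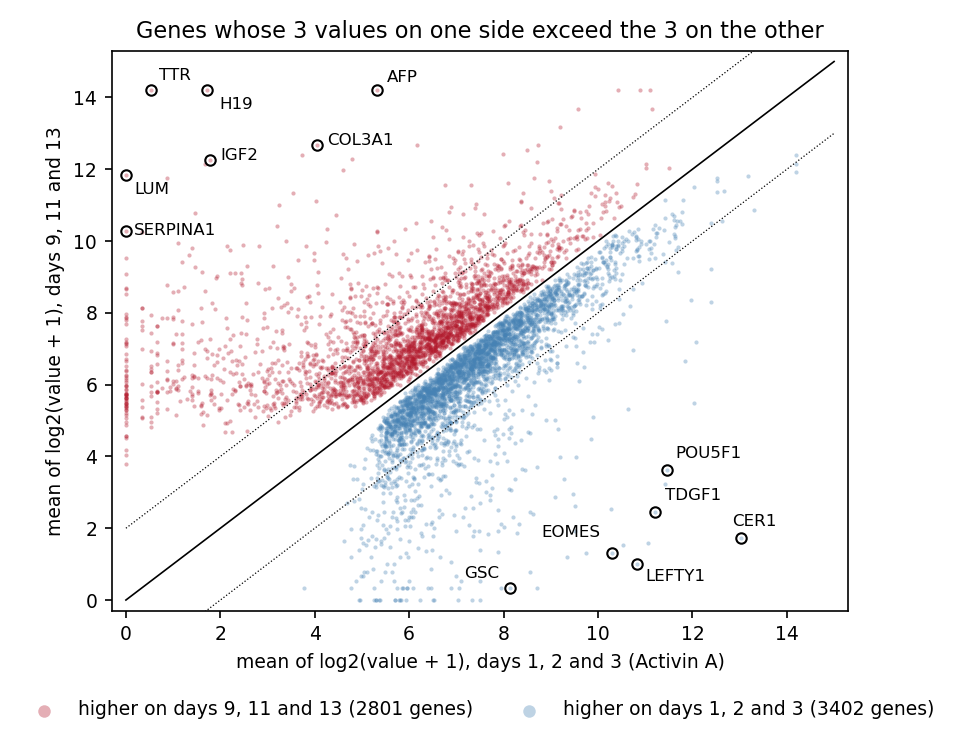
Mean log2(value + 1) over days 9, 11 and 13 (vertical) against the mean over days 1, 2 and 3 (horizontal), 1 point for each of the 2801 genes higher late (red) and 3402 higher on the Activin days (blue). The solid line marks equal means and the dotted lines a 4-fold difference; TTR, H19 and AFP lie at the ceiling of the scale, and CER1 lies farthest right among the labelled Activin genes.

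Although more genes were higher on the Activin days, the genes higher late were farther apart. The median difference was 1.12 for the genes higher late and -0.89 for those higher on the Activin days, against -0.09 over all genes tested. A difference of at least 4-fold, a log2 difference of 2, was reached by 776 genes higher late (7.71% of the genes tested) and by 453 higher on the Activin days (4.5%). At a log2 difference of at least 5 these counts were 199 and 82. For 555 of the 776 and 307 of the 453, the gap between the sides (lowest value of the high side minus highest of the low side) was wider than the range over days within either stage. The 4-fold cut itself favours wide gaps. Over all separated genes this held for 1282 of those higher late (45.8%) and 1285 of those higher on the Activin days (37.8%). Of the 776, 67 were listed at 0 on every Activin day, and of the 453, 19 were listed at 0 on every late day. The direction of the majority among all separated genes depended on scaling and on the gap asked for. With libraries scaled by the median of ratios, 3206 were higher late and 2948 higher on the Activin days. With a gap of at least 1, 950 were higher late and 626 higher on the Activin days.

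Genes at the edge of the rule differed by little. CPSF1, a subunit of the RNA cleavage machinery, had 444, 450 and 460 and then 522, 462 and 466, a gap of 0.01. ACAA2, a mitochondrial thiolase, had 324, 268 and 254 and then 249, 196 and 253, so that its sides were 1 unit apart. At the filter, CD68 entered through a single value of 50 on day 13, with 16 and 14 on days 9 and 11 and 0 on the Activin days. TINAG, with 0 on the Activin days and 47, 49 and 49 late, stayed out.

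Genes of Nodal's own circuit, CER1, LEFTY1 and TDGF1, had the 3 widest gaps on the Activin side. Of 21 tested genes of the Nodal and Activin pathway, 12 were higher on days 1, 2 and 3 (57.1%, against 33.8% of all genes), 5 were higher late (23.8%, against 27.8%) and 4 overlapped. The median difference was -1.25, and -0.40 over the 17 genes that stayed below 2023 on all 6 days, where the tied top levels of the scale begin. Among the ligands, NODAL had 261, 462 and 488 and then 52, 39 and 22, and GDF3 had 194, 152 and 134 and then 30, 12 and 0. Of the secreted inhibitors, CER1 had 1638, 18734 and 18734 and then 2, 5 and 1, and LEFTY2 had 2636, 574 and 6495 and then 6, 3 and 0. LEFTY1 and LEFTY2 are near-identical paralogs, so the split of reads between them is uncertain. Follistatin, FST, which binds Activin itself, overlapped between the stages, with 121, 102 and 238 and then 233, 132 and 54.

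The co-receptor TDGF1, which Nodal and GDF3 need to signal, had 2638, 2021 and 2428 and then 8, 5 and 2. It overlaps LRRC2 on the opposite strand, which had 60, 51 and 82 and then 14, 7 and 5, and strand use in counting is not given in the sources used here. The receptors of Activin did not all lie on one side. ACVR2B had 376, 431 and 388 against 171, 182 and 149, whereas the type I receptor ACVR1B was higher late, with 133, 158 and 150 against 282, 288 and 263. INHBA, the subunit that makes up Activin A, stayed under the filter at 0 on each Activin day and 16, 8 and 28 late. Of the SMADs that carry the signal, SMAD2 and SMAD4 overlapped, and SMAD3 was higher late, with 66, 38 and 76 and then 252, 291 and 382. FOXH1, the factor through which SMADs reach many endoderm genes, had 162, 267 and 226 and then 54, 24 and 0.

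Feedback genes did not all lie on the Activin side. PMEPA1, an inhibitor induced by TGFβ signals, had 194, 215 and 299 and then 9, 12 and 21, but the decoy receptor BAMBI had 89, 134 and 118 and then 502, 442 and 494.

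Of 20 tested genes of mesendoderm and endoderm, 9 were higher on the Activin days (against 33.8% of all genes), 2 were higher late and 9 overlapped, with a median difference of -3.41. The T-box factor EOMES had 1088, 1435 and 1279 and then 2, 0 and 4. MIXL1, a homeobox gene of the primitive streak, had 874, 1022 and 696 and then 4, 2 and 0. GSC, the homeobox gene goosecoid, had 202, 342 and 315 and then 1, 0 and 0. These 3 were already high on day 1, and their days 1 to 3 differed by less than a log2 unit.

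Other genes of the list built up within the stage. FGF17 had 80, 1386 and 2426 on the Activin days and 0, 2 and 3 late, and CYP26A1, which degrades retinoic acid, had 56, 1216 and 3434 and then 26, 7 and 4. The genes that overlapped included the factors used to define endoderm: SOX17, CXCR4 and GATA6 through low values on day 1, and FOXA2 and GATA4 through late values near those of days 2 and 3. GATA6 had 59, 576 and 642 and then 219, 178 and 143. FOXA2 had 210, 208 and 144 late, and GATA4 had 6, 160 and 268 and then 262, 244 and 184. APLNR, the apelin receptor, lay in the opposite direction with 1, 5 and 9 on the Activin days and 744, 470 and 482 late.

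Pluripotency genes made up the other large block on the Activin side, and they differed from the endoderm genes in being present at day 0. Of 21 tested, 19 were higher on days 1, 2 and 3 (90.5%, against 33.8% of all genes), none was higher late, and PODXL and TRIM71 overlapped, with a median difference of -3.74. POU5F1, the factor OCT4, had 4861 at day 0, 6498, 2640 and 1280 on days 1, 2 and 3 and 21, 6 and 11 late. NANOG had 460 at day 0, then 582, 323 and 286 and, late, 7, 6 and 2. SOX2 was at 371 at day 0, 132, 146 and 82 on the Activin days and 1, 0 and 0 late. L1TD1, an RNA-binding protein of stem cells, had 1554, 1108 and 1087 and then 14, 12 and 0. LIN28A, which blocks let-7 microRNAs, was slow to go, at 2800, 2971 and 2971 and then 1437, 1186 and 606.

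Day 0, which the rule did not use, sorted the 453 genes at least 4-fold higher on the Activin days into 4 kinds. Day 0 lay above all Activin days for 157 (34.7%), within their range for 131 (28.9%), between the sides for 133 (29.4%) and at or below the late days for 32 (7.06%). The first kind held SOX2, ZSCAN10 and the retinoid-binding CRABP1 (288 at day 0, then 258, 242 and 203 and, late, 3, 3 and 0). POU5F1, NANOG and L1TD1 were of the second kind. LEFTY1 (174 at day 0), TDGF1 (1044) and NODAL's target CER1 (6) were of the third, with EOMES (7) and MIXL1 (6). CER1, EOMES and MIXL1 were near 0 at day 0 and passed their highest late values (5, 4 and 4) by only a few units. For such genes the third and last kinds are not clearly apart, as OTX2 of the last kind had 22 at day 0. The last kind held FGF8, FGF17, OTX2, LHX1 and WNT3, the Wnt ligand that starts the primitive streak, which had 6 at day 0, 94, 138 and 158 on the Activin days and 13, 12 and 14 late. It also held ACTG1, a cytoplasmic actin, which was high throughout, at 4855 at day 0, 18734 on each Activin day and 4855, 3428 and 3428 late.

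Other genes with wide gaps on the Activin side were GAL, which encodes the neuropeptide galanin (1129, 2164 and 1324, then 5, 1 and 1), and RET, the receptor of GDNF (135, 165 and 182, then 0 on each late day). ZIC2, a zinc finger factor of early embryos, had 804, 675 and 724 and then 7, 6 and 0. The non-coding transcripts RP11-256I9.2 (604, 436 and 278, then 1, 0 and 0), CTD-2058B24.2 (188, 121 and 96, then 0) and RP11-867G2.6 (83, 88 and 105, then 0) were among the 15 widest gaps. Genes that GENCODE release 29 does not call protein-coding made up 43 of 447 matched genes at least 4-fold higher on the Activin days (9.62%), against 15 of 763 (1.97%) of those higher late and 1.97% of all genes tested. Several of these transcripts were higher still at day 0, RP11-256I9.2 at 2164 and CTD-2058B24.2 at 1000.

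On the late side the plasma proteins of the liver stood foremost. Of 25 tested, 24 were higher on days 9, 11 and 13 (against 27.8% of all genes), with a median difference of 7.41. Of these, 23 were at least 4-fold higher (against 7.71% of all genes). TTR, AFP, FGA, FGB and others passed the filter only through their late values. They could not have been called higher on the Activin days, so the count is partly set by the filter. TTR, the carrier of thyroid hormone and retinol-binding protein, had 2, 0 and 0 and then 18734 on each late day. AFP had 40, 44 and 33 and then 18734 on each late day. The fibrinogen chain FGA had 0, 2 and 1 and then 3428 on each late day, and FGB had 0, 0 and 32 and then 4866, 4866 and 3868. FGG, the third chain, was far lower, with 0 on the Activin days and 43, 41 and 66 late. Complement C3 overlapped, at 20, 50 and 54 and then 16, 20 and 18, and reached 299 at day 21.

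Apolipoproteins, the protein part of lipoprotein particles, were unequal among themselves. APOB had 16, 16 and 7 and then 4856, 6494 and 4856, and APOA1 had 13, 28 and 34 and then 3428, 3860 and 4855. APOE was already at 918, 1044 and 1733 on the Activin days and had 3861, 2796 and 2796 late, a difference of 1.39. APOC3 (20, 30 and 466) and APOA4 (120, 180 and 492) were markedly higher on day 13 than on days 9 and 11, as were AHSG (124, 135 and 518) and TF, transferrin (64, 98 and 291). These 4 went on to 2968, 4855, 6495 and 3865 at day 21.

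Hepatic transcription factors lay almost wholly on the late side: 13 of 15 tested were higher late (86.7%, against 27.8% of all genes), 9 at least 4-fold (against 7.71%), and FOXA3 and ATF5 overlapped, with a median difference of 3.34. ONECUT1, ONECUT2, PROX1, NR1H4, NR0B2 and NR1I2 of that list were not analysed here. HNF4A had 4, 18 and 28 and then 1021, 918 and 838. CEBPA, the factor of fat and liver cells, had 0, 0 and 3 and then 130, 219 and 266, and CREB3L3, a membrane-bound factor of the liver, had 1 on each Activin day and then 216, 222 and 268. FOXA1 had 1, 1 and 4 and then 93, 157 and 111, and TBX3 had 0, 52 and 42 and then 353, 262 and 91.

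Among the other wide gaps on the late side, GJB1, the connexin of hepatocyte gap junctions, was listed at 0 on the Activin days and had 320, 405 and 540 late. The zinc transporter SLC39A5 was listed at 0 and then had 478, 512 and 641; it overlaps ANKRD52 on the opposite strand, which stayed between 206 and 345 over the 6 days.

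**Figure D2:**
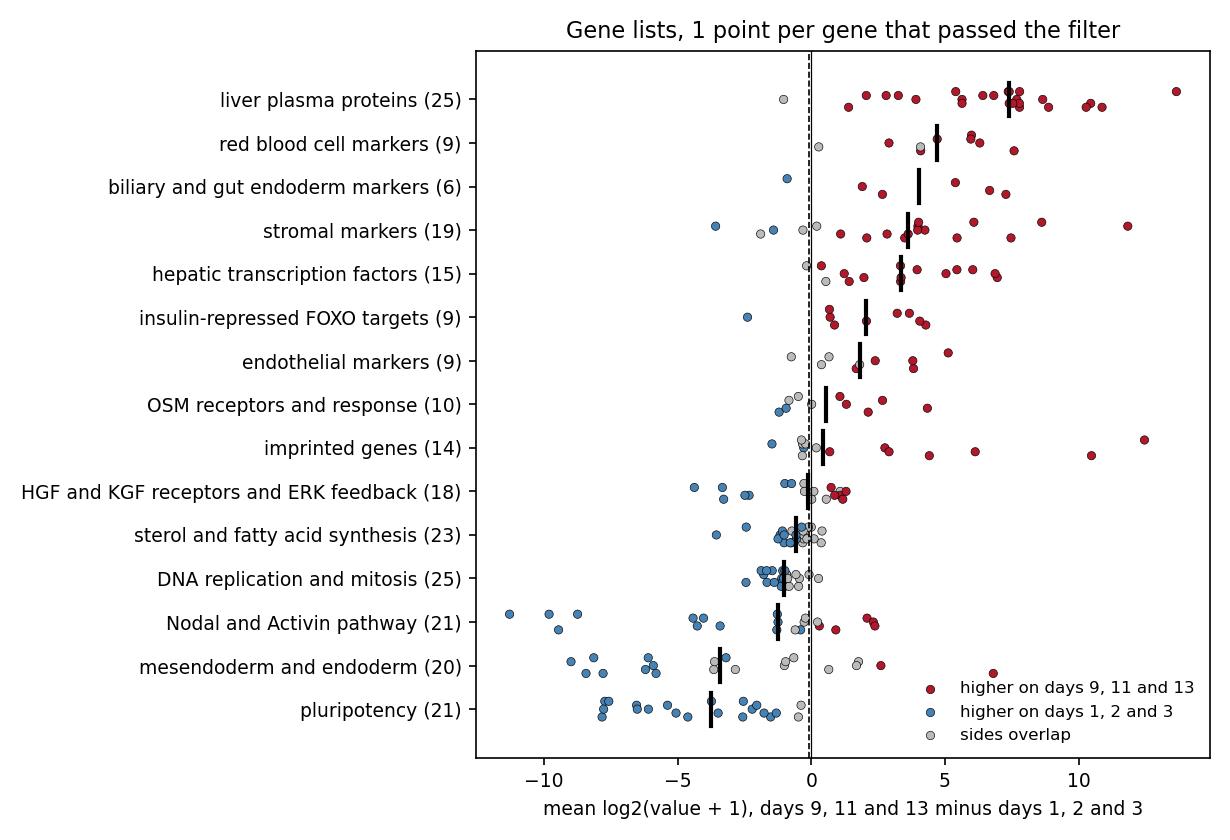
Difference in mean log2(value + 1), days 9, 11 and 13 minus days 1, 2 and 3, for each tested gene (points) of the 15 lists with at least 5 tested genes, with the list median as a bar and the median of all tested genes as a dashed line. Point colour gives the side on which all 3 values are higher, grey where the sides overlap; the pluripotency and mesendoderm lists lie to the left and the plasma proteins farthest to the right.

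To show sequence beside these levels, the promoters of RefSeq (GRCh38.p14, 250 bases before to 50 after the start) were searched on both strands for CAAAGTCCA, a form of the HNF4 site. Of the 776 genes at least 4-fold higher late, 555 had a promoter in the table and 5 held the motif (0.901%), against 1 of 274 genes at least 4-fold higher on the Activin days (0.365%), 21 of 7443 tested genes (0.282%) and 98 of all 27305 promoters (0.359%). The 5 matches are shown because HNF4A was itself high on the late days, on the strand of the gene with the motif in capitals and 10 flanking bases on each side; no other motif searched overlapped them.
AHSG: cacagcagcaTGGACTTTGgcagatttct
CCDC141: ttacttgtttCAAAGTCCAtggttacaat
CD68: acagcctagcTGGACTTTGggtgaggcgg
F10: agctggggcgTGGACTTTGctccagcagc
PDZK1: aatctttgttCAAAGTCCAgtgagttgca

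The windows lie at chr3:186612871-186612899 (AHSG, plus strand), chr2:179050318-179050346 (CCDC141, minus), chr17:7579642-7579670 (CD68, plus), chr13:113122787-113122815 (F10, plus) and chr1:145707387-145707415 (PDZK1, minus). Counting the annotated start base as 0, the first motif base was at -179 in AHSG, -199 in CCDC141, 14 in CD68, -2 in F10 and -5 in PDZK1. The genes were unlike in level and in function. AHSG, the plasma protein fetuin-A, was listed at 0 on the Activin days and had 124, 135 and 518 late, and F10, a clotting factor of the liver, had 20, 24 and 68 and then 310, 298 and 338. PDZK1, a scaffold protein that holds membrane transporters, had 2, 14 and 42 and then 517, 756 and 934. CCDC141 had 12, 1 and 18 and then 96, 69 and 52, and CD68, a macrophage marker, is the gene at the edge of the filter given above. A match of letters is a description of the window and no evidence that the factor binds there.

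Of the other motifs, TGTTTAC, for FOXA factors, was in 4.32% of the first set, 2.19% of the second and 2.36% of tested genes, against 3.41% of all promoters. TTGCNNAA, for CEBP factors, was in 9.19%, 8.76% and 6.58%, and in 10.6% of all promoters, above either set. AATCCACA, for FOXH1, was in 0.721%, 1.09% and 0.336% and in 0.798% of all promoters. AGGTGTGA, a T-box motif, was in 2 of 555, 3 of 274, 44 of 7443 and 268 of 27305, and the octamer ATGCAAAT in 1.62%, 2.55% and 1.12%, against 1.80% of all. GTCTAGAC, a SMAD palindrome, was in 1 of 555, 0 of 274, 10 of 7443 and 55 of 27305. TATAAA, read on the strand of the gene, was in 7.93% and 6.93%, against 3.33% of tested and 7.71% of all promoters.

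The late side also held genes used here as markers of stromal and other cells, though bulk RNA does not show which cells made them. Of 19 tested stromal markers, 14 were higher late (73.7%, against 27.8% of all genes), 2 were higher on the Activin days (against 33.8%) and 3 overlapped, with a median difference of 3.62. LUM, the matrix proteoglycan lumican, was listed at 0 on the Activin days and had 2643, 3868 and 4866. COL3A1, a fibrillar collagen, had 11, 16 and 21 and then 6502 on each late day. The sum over the list was 7000, 26294 and 28663 on the Activin days and 28667, 37711 and 58102 late. COL5A2, a collagen, made up most of that sum on days 2 and 3, as it was at 2026, 18734 and 18734 and then at 1644, 2802 and 2972. THY1 (398, 220 and 147, then 14, 23 and 20) and TAGLN (1434, 1214 and 1324, then 364, 527 and 628) lay on the Activin side. TWIST1, TCF21 and PRRX1 of that list were not analysed here.

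HAND1, a factor of heart and extra-embryonic mesoderm, had 1, 2 and 2 and then 890, 822 and 980, and FMOD, the proteoglycan fibromodulin, was listed at 0 and then had 308, 415 and 398. AQP1, a water channel of red cells, endothelium and bile ducts, had 0 and then 308, 779 and 1638.

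Of 9 tested endothelial markers, 5 were higher late (55.6%, against 27.8% of all genes) and 4 overlapped, and the sum was 435, 625 and 796 and then 1065, 1395 and 2265. CDH5, the cadherin of endothelium, had 3, 18 and 9 and then 114, 122 and 152. Of 9 tested red blood cell markers, 7 were higher late (77.8%, against 27.8% of all genes) and 2 overlapped. The sum was 70, 73 and 78 and then 223, 1124 and 5825. The embryonic globin HBE1 had 3, 0 and 1 and then 42, 446 and 2968, so that day 13 supplied most of the late sum. HBE1, HBA2 and HBZ passed the filter only through late values and could not have been called higher on the Activin days. The split of reads within the near-identical globin pairs (HBA1 with HBA2, HBG1 with HBG2) is uncertain. Of 9 macrophage and leukocyte markers listed, 3 were in the table and only CD68 passed the filter, while PTPRC was at 0 on each late day and LAPTM5 had 4, 4 and 5 and then 20, 18 and 33. Of 10 neural markers listed, 2 were in the table, and of these STMN2 passed and its sides overlapped. The other markers of both lists were not analysed here. Of 6 tested biliary and gut markers, 5 were higher late (83.3%, against 27.8% of all genes). The other 1 was higher on the Activin days (16.7%, against 33.8%). Those higher late included CDX2 (0 on the Activin days, then 136, 138 and 197) and CFTR (0, 12 and 11, then 600, 704 and 390). KRT19, which the paper lists as a gene of hepatocyte precursors, was also higher late (284, 703 and 936, then 2636, 2164 and 1734). The part of any of these cell types in the genes higher late was not tested.

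Imprinted genes divided. Of 14 tested, 7 were higher late (50%, against 27.8% of all genes), 2 were higher on the Activin days and 5 overlapped. The median difference was 0.44 and became -0.02 over the 10 genes that stayed below 2023 on all 6 days. IGF2, the fetal growth factor next to H19, had 0, 4 and 7 and then 2796, 6494 and 6494, and shares exons with the INS-IGF2 readthrough gene. DLK1, a Notch-like protein of hepatoblasts, had 0, 3 and 6 and then 162, 190 and 310. CDKN1C, an inhibitor of cell division, had 30, 30 and 57 and then 890, 839 and 724. SNRPN lay in the other direction, at 400, 238 and 334 and then 139, 88 and 119, and NDN, NNAT and PEG10 overlapped.

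The pathways of the late growth factors were examined next. Of 18 tested genes for HGF and KGF reception and feedback on the ERK kinases, 5 were higher late, 7 were higher on the Activin days and 6 overlapped, with a median difference of -0.12, which became 0.01 without day 13. These shares, 27.8% and 38.9%, were near those of all genes tested (27.8% and 33.8%). At 4-fold or more the sides were unlike. Of the 18, 5 were that much higher on the Activin days (against 4.5% of all genes) and 0 late (against 7.71%). The receptor MET stayed under the filter, with 22, 12 and 9 and then 26, 26 and 16. FGFR2, whose values do not tell the KGF-binding isoform apart, had 224, 131 and 144 and then 236, 264 and 218, so that its sides overlapped through day 1 and day 13. The activator ST14 (76, 53 and 56, then 176, 157 and 125) and the inhibitor SPINT1 (318, 308 and 329, then 788, 838 and 566), both of the proteases that release active HGF, were higher late.

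The 7 genes of that list higher on the Activin days, SPRY1, SPRY4, DUSP4, DUSP6, ETV4, ETV5 and IL17RD, are feedback genes or targets of ERK activity. Others of that kind did not follow: SPRY2, SPRED1, PHLDA1 and EGR1 overlapped, and SPRED2 was higher late, with 55, 108 and 122 and then 171, 146 and 137. DUSP6, an ERK phosphatase, had 1185, 478 and 314 and then 118, 85 and 136. SPRY4 had 854, 442 and 326 and then 129, 92 and 57, ETV4 had 331, 271 and 256 and then 34, 30 and 20, and IL17RD had 746, 599 and 415 and then 32, 24 and 24. The values of DUSP6 and SPRY4 were highest at day 0 or day 1 (DUSP6 1280 and SPRY4 854 at day 0). EGR1, an immediate early gene, had 244, 10 and 33 and then 194, 19 and 219. DUSP9, another phosphatase of such kinases, outside the list and added after its values were seen, lay in the opposite direction, with 2, 1 and 1 and then 695, 779 and 574.

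Since the label of day 13 names OSM, genes of its receptors and response were read day by day. Of 10 tested, 5 were higher late (50%, against 27.8% of all genes), 2 higher on the Activin days and 3 overlapped, with a median difference of 0.54. The shared receptor IL6ST had 32, 47 and 82 and then 756, 1250 and 1158, and LIFR had 61, 170 and 212 and then 1278, 918 and 488. OSMR, a receptor chain of OSM, overlapped between the stages, with 14, 61 and 38 on the Activin days. Its values were 18, 20 and 32 on days 9, 11 and 13 and 171 at day 21. SOCS3, which the pathway induces, had 152, 134 and 102 and then 184 at day 21, and the acute-phase gene HP had 6, 10 and 4 and then 74. CEBPD was at 31, 52 and 52 and then 187. Other members were higher on day 13 than on days 9 and 11, and higher again at day 21: STAT3, which carries the signal, had 99, 142 and 189 and then 396, and TIMP1, a protease inhibitor, had 192, 206 and 249 and then 462. JUNB (28, 24 and 46, then 80) and CEBPB (21, 24 and 37, then 56) had the same order at low values. The list thus gave no single placing of day 13.

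With insulin absent from the Activin medium only, 2 lists that follow insulin were examined. Of 23 tested genes of sterol and fatty acid synthesis, which insulin promotes, none was higher late, 12 were higher on the Activin days (52.2%, against 33.8% of all genes) and 11 overlapped. The median difference was -0.56, and -0.36 over the 19 genes that stayed below 2023 on all 6 days. HMGCS1, an enzyme of cholesterol synthesis, had 2970, 18734 and 18734 and then 2023, 2166 and 1490. FASN, fatty acid synthase, had 2636, 2636 and 1886 and then 1638, 1554 and 1087. Of 9 tested FOXO targets, which insulin represses, 8 were higher late (88.9%, against 27.8% of all genes) and 1, TRIB1, on the Activin days (88, 158 and 244, then 36, 30 and 20), with a median difference of 2.06. IRS1, an insulin receptor substrate, had 148, 88 and 64 and then 853, 958 and 839. SESN3 had 218, 78 and 94 and then 1896, 2438 and 1644, and TXNIP had 56, 32 and 20 and then 170, 390 and 1216. IGFBP1, PCK1 and G6PC of this list were not analysed here.

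Genes of DNA replication and mitosis were higher on the Activin days by a small step. Of 25 tested, 17 were higher on days 1, 2 and 3 (against 33.8% of all genes), none was higher late and 8 overlapped, with a median difference of -1.04 and 1 gene, MCM6, at least 4-fold apart. MCM6, a subunit of the replicative helicase, had 779, 724 and 704 and then 141, 120 and 142. The sum over the list was 13476, 12065 and 7693 and then 4921, 6038 and 5182, with 3126 at day 7 and 1207 at day 21. MKI67, the proliferation antigen, overlapped, with 589, 703 and 424 and then 272, 497 and 390.

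Days 5 and 7 lay between the stages in time, and the rule did not use them, so they place the exchange of levels in time. For the 776 genes at least 4-fold higher late, the position between the mean of the Activin days (0%) and that of the late days (100%) had a median of 36.7% at day 5 and 82.9% at day 7. For the 453 at least 4-fold higher on the Activin days it was 41.6% and 75.2%. At day 5, 301 of the 776 and 189 of the 453 were past the midpoint, and at day 7, 636 (82.0%) and 376 (83.0%). Most of the exchange was thus passed by day 7, before the first library with HGF and KGF. FGF4, BMP2, the insulin and the time in culture cannot be told apart over these days. From day 3 to day 5, values differed at least 4-fold upward for 250 genes and downward for 196. From day 5 to day 7 the counts were 197 and 117, and from day 7 to day 9 they were 65 and 21.

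**Figure D3:**
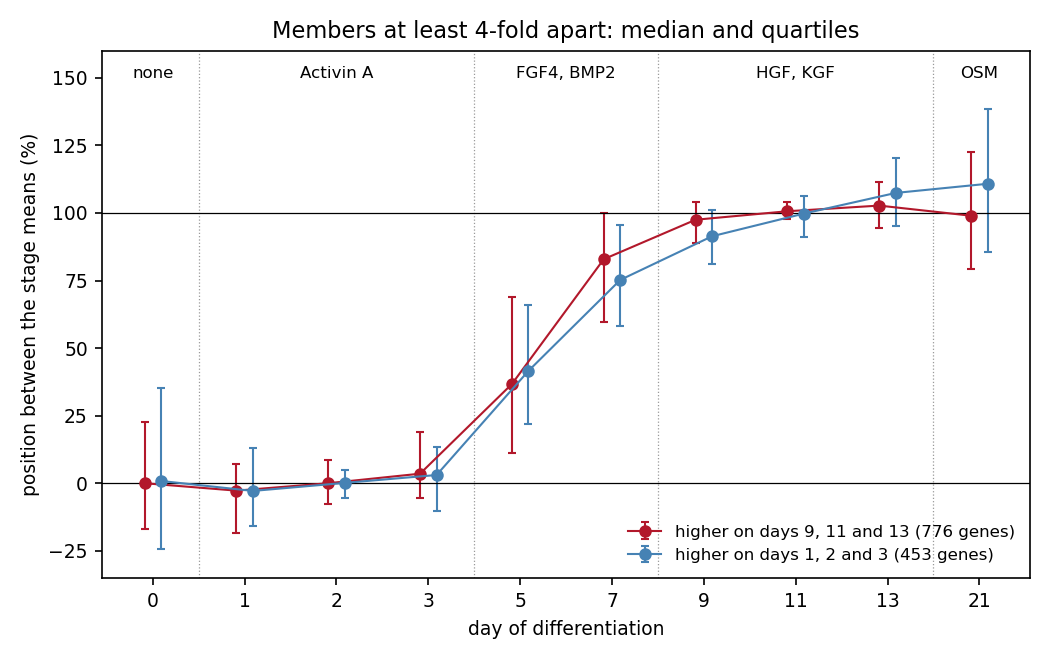
Median and quartiles of the position of each gene between its mean over days 1, 2 and 3 (0%) and its mean over days 9, 11 and 13 (100%) for the genes at least 4-fold apart, by day, with the treatments of the written protocol above. The values on the 6 days of the rule centre on 0% and 100% by construction; the median at day 7 is 82.9% for the 776 genes higher late and 75.2% for the 453 higher on the Activin days.

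The order in which single genes crossed differed. Of the 776, 109 (14.0%) were at the late level by day 5, among them the limb and hindgut factor PITX1 (242 at day 5, against 0 on days 1 to 3) and the endoderm factor GATA5 (83, against 0). Another 185 were there at day 7 but not day 5, with AFP (342 at day 5 and 18734 at day 7), APOB (186 and 4856), FGB (52 and 4866) and MTTP, which loads lipid on APOB (47 and 2972). TTR (26 and 3430), SERPINA1 (8 and 56) and H19 (63 and 474) were between the sides at day 7, as were 427 in this class. The last 55 were no higher at day 7 than on the Activin days, among them the glucose transporter SLC2A2 (0 at day 7, then 54, 37 and 43), PLG (0), the homeobox gene HOXC8 (0, then 22, 58 and 109) and HBE1 (3).

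On the Activin side, 70 of 453 were at the late level by day 5, with GSC at 0, PMEPA1 at 18 and FOXD3, a stem cell factor, at 0. A further 116 were there by day 7, with LEFTY1 (8 at day 5 and 0 at day 7), LEFTY2 (10 and 5), RET (6 and 0) and SOX2 (2 and 0). EOMES (230 and 35), TDGF1 (768 and 92) and POU5F1 (440 and 88) took longer. Still on the Activin side at day 7, without having reached the late level on day 5, were 24 genes, among them DUSP4 (350 and 72), SFRP1, a Wnt inhibitor (1130 and 527), and ZFP42 (242 and 227).

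**Figure D4:**
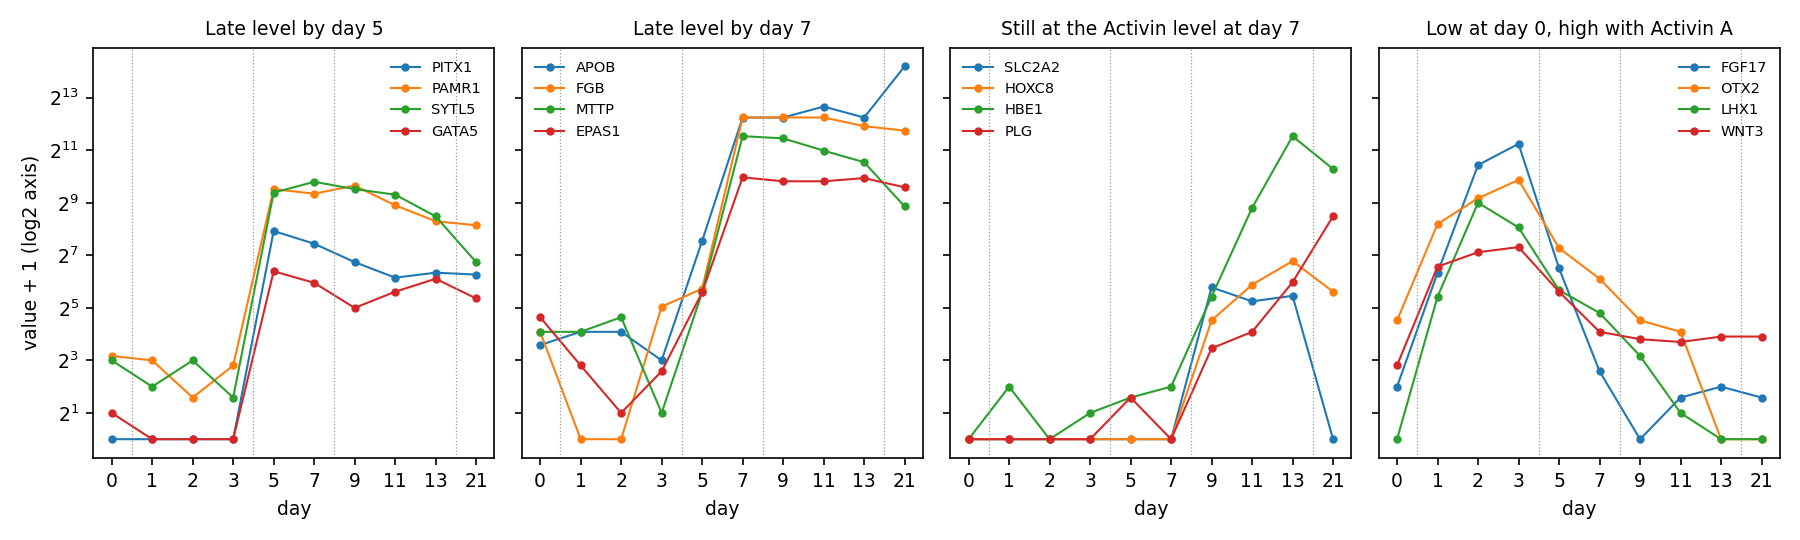
Value + 1 on a log2 axis on each day for 4 genes of each of 4 time patterns, 1 line per gene, with dotted lines between the treatments of the written protocol. PITX1 and GATA5 are high from day 5, APOB and MTTP from day 7 and SLC2A2 and HBE1 only from day 9, whereas FGF17 and LHX1 are high on the Activin days and low at day 0 and late.

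Day 21, also outside the rule, showed how far the late level lasted into the OSM step. By the protocol that step also changed the medium with B27 to a hepatocyte culture medium. The OSM, the medium and the time in culture cannot be told apart. Of the 776, 272 (35.1%) were above all 3 late days at day 21, 213 (27.4%) within their range, 253 (32.6%) between the sides and 38 (4.90%) back at or below the Activin level. SERPINA1 (18734), AQP1 (2796) and APOB (18734) were of the first kind, GJB1 (234) and HAND1 (276) of the third. The 38 included SLC2A2 (0) and KRT8, a simple epithelial keratin, which had 18734 on each late day and 2024 at day 21 against 937, 2970 and 3864 on the Activin days. Of the 453, 350 (77.3%) were at or below the late level at day 21 and 18 were back on the Activin side.

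At day 0, 549 of the 776 (70.7%) were no higher than on their highest Activin day, so that they first reached the late level after day 3. Not all of them were low before, as KRT8 had 1438 at day 0. A group of 14 had a day 0 value on the late side and were low on the Activin days, among them ALDOC, a glycolytic aldolase (371 at day 0, then 99, 88 and 62, and 353, 368 and 300 late), EDNRB, an endothelin receptor (208, then 20, 14 and 13, and 52, 60 and 91), and RND3, a small GTPase (188, then 32, 36 and 30, and 148, 90 and 187).

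Neither stage was flat within itself. Of the 776 genes, 326 (42.0%) were higher at each step from day 9 to 11 to 13 and 158 (20.4%) lower at each, against 21.3% and 25.6% of all genes tested. Of the 453, 178 (39.3%) were lower at each step from day 1 to 2 to 3 and 113 (24.9%) higher at each, against 27.1% and 22.9% of all genes tested. From day 1 to day 2, 96 genes went up and 25 down by 4-fold or more, from day 2 to day 3 32 and 6, from day 9 to day 11 9 and 9, and from day 11 to day 13 19 and 8. Without day 13, whose label and protocol disagree, 1091 of the 1229 genes at least 4-fold apart kept that distance, and the counts were 720 higher late and 431 higher on the Activin days.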

How the data were processed

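RNA of H1 cells was sequenced from TruSeq libraries on a MiSeq, with 1 library per day. The authors aligned reads to the Ensembl transcriptome with Bowtie2 2.2.0 and RSEM 1.2.17, normalized them for GC content with EDASeq and deposited whole numbers for 12125 genes in a single table. The deposited values are scores, not counts. The study gives an average depth over its libraries, but the depth of each cannot be read from the values. The genome build of the table was not settled, so no coordinate from it is printed. Members, gene lists and comparisons were chosen with earlier results of these data known. In each direction the 15 genes with the widest gap were named, with the stage markers, up to 4 genes of each of 17 lists in each direction, and the genes just inside and outside the rule. Some single genes that this rule names are not reported here. Genes named for their time pattern, and further list members, were chosen after their values were seen. With 1 library per day no test was made. Log values are log2(value + 1), and the filter was a largest value of 50 over 6 days. The code was tested on simulated data. Alternatives were other filters (20 and 200), pseudocounts (0.1 and 5), a scaling by median of ratios, a gap of 1, and leaving out each day. Python 3.11.15, numpy 2.4.6, pandas 2.3.3 and matplotlib 3.10.9 were used, with biotypes from GENCODE 29 and promoters from RefSeq.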

Additional observations from a re-analysis of the deposited data

How the results depend on the processing

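No paired analysis was possible because each day has 1 library. Of the alternatives for counts of genes, 44 of 50 stayed within 1.5 times the reported count, and of those for list medians 60 of 68 moved by no more than the spread between days of a stage. With a largest value of at least 200, the counts were 1290 higher late and 1583 higher on the Activin days, of which 390 and 193 were at least 4-fold apart. With a gap of at least 1, where fewer genes could pass, they were 950 and 626. The majority then lay on the late side (60.3% of the separated genes, against 45.2% as deposited). Leaving out each day gave 2917 to 3202 genes higher late, 3549 to 3864 higher on the Activin days, and 720 to 830 and 431 to 480 at least 4-fold apart, a looser rule since fewer values must separate. Scaling by the median of ratios moved the median of all genes by 0.107, from -0.09 to 0.02, and turned the majority, with 3206 genes higher late and 2948 higher on the Activin days (52.1% of the separated genes higher late, against 45.2% as deposited), while both 4-fold counts stayed within 1.5 times. The median of the HGF and KGF list went from -0.12 to 0.014 without day 13. Pseudocounts set the size of differences of genes near 0: the plasma protein median was 8.79 with 0.1 and 5.48 with 5, the biliary and gut median 5.28 and 2.84, CD68 of the macrophage list 7.81 and 2.49, and the hepatic factor median 2.46 with 5. Of 90 alternatives for the 30 genes with the widest gaps, 45 moved the difference and none reversed it. Under alternatives chosen after seeing the data, the median position at day 7 was 82.3% and 75.4% with the median of ratios, 82.6% and 75.2% without genes at the top levels, and 87.6% and 81.1% without day 13 (as reported, 82.9% and 75.2%), and the share of genes at least 4-fold apart whose gap was wider than either stage's range was 70.8%, 69.5% and 78.9% (as reported, 70.1%). Depth, which the values do not give, limits what can be said of any low value.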
